A study of Homo sapiens with 2 samples.

Results

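The genes described here are the enzymes and regulators that handle reactive oxygen species with glutathione and thioredoxin: the NRF2 axis, glutathione synthesis, thioredoxins, peroxiredoxins, glutathione peroxidases, superoxide dismutases, catalase, glutaredoxins and glutathione transferases. The list held 39 genes, chosen by function, and a gene entered by its probe sets annotated to it alone. Such probe sets, 73 in all, existed for 38 of the 39 genes, among 19775 genes named on the array. PRDX5 was not analysed here. SK-N-MC is an established human cell line that the submitters describe as a neuroepithelioma line and that is now placed in the Ewing tumour family. The 2 samples were SK-N-MC cells stably transfected with human melanotransferrin cDNA in the pCMV-Script vector (the line labelled Hyper Clone #4, called the MTf clone here) and SK-N-MC cells stably transfected with the pCMV-Script vector without that insert (labelled Vector Control #1). Total RNA of each was hybridised to 1 Affymetrix U133 Plus 2.0 array. Both lines carry the vector, and each array stands for 1 transfected line, so an effect of melanotransferrin and a difference between any 2 transfected lines cannot be told apart, and there is no replicate SD and no test.

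Melanotransferrin is a homologue of the iron carrier transferrin that is held at the cell membrane by a lipid anchor. Iron in excess can feed the formation of oxygen radicals, and the enzymes described here remove superoxide and peroxides. Under resting conditions KEAP1 holds the transcription factor NRF2 for degradation. When KEAP1 is modified by electrophiles or oxidants, NRF2 accumulates and binds antioxidant response elements in the promoters of genes such as NQO1, GCLM and TXNRD1. Superoxide dismutases turn superoxide into hydrogen peroxide, which catalase, peroxiredoxins and glutathione peroxidases then reduce. Thioredoxin and glutathione, which are kept reduced with NADPH, supply the electrons for the peroxiredoxins and glutathione peroxidases.

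Signals are linear probe set intensities as deposited, and a ratio is the MTf clone over the vector control. Values under 208, the 90th percentile of probe sets for olfactory and taste receptors and keratin-associated proteins, were treated as background (the floor). A gene was represented by its brightest probe set, by the mean signal of both arrays. Above the floor on at least 1 array were 37 of the 38 genes, and 33 were above it on both. The other 4, GPX2, GPX3, SOD3 and MGST1, were above it on the vector control array only, so their ratios are bounds. Background probe sets read lower in the MTf clone, with a median of 44.0, than in the vector control, with a median of 67.4. Among all genes 442 were above the floor on the MTf clone array only and 1426 on the vector control array only, the same side as these 4; the part of the background in this was not tested.

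Melanotransferrin itself read 4449.4 in the MTf clone and 18.4 in the vector control on 1 of its 4 probe sets, at least 21.4-fold higher. Another read 209.3 in the MTf clone and 245.8 in the vector control, and the remaining 2 were below the floor on both arrays. On the brightest probe set, all 9 Ewing tumour markers with a probe set, CD99 and NKX2-2 among them, read higher in the MTf clone. Their median log2 ratio was 0.29, and 47.1% of all measured genes read higher. Other probe sets of BCL11B and HOXD10 read lower, down to log2 ratios of -0.98 and -0.07. On the brightest probe set all 9 were over the floor on both arrays. Below it on both were 4 of 7 melanocyte markers and 3 of 5 genes of the leukocyte list, which also holds the haemoglobin gene HBB. But KIT of the melanocyte list read 6726.3 in the MTf clone and 6439.3 in the vector control. MITF of that list read 506.7 in the MTf clone and 318.4 in the vector control. PTPRC of the leukocyte list read 13942.6 in the MTf clone and 15581.1 in the vector control. Of 10 fibroblast markers, 9 were over the floor on both arrays, with log2 ratios from -0.63 to 0.65. COL3A1 read 12187.8 in the MTf clone and 12047.3 in the vector control, and NKX2-2 read 12438.4 and 11549.7. Signals of probe sets of different genes cannot be compared directly. Whether these lists set the line apart from fibroblasts was not tested.

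The promoter windows of some of these genes hold the core of the antioxidant response element, and these stretches are shown because that element is the sequence NRF2 is known to bind. The RefSeq table (GRCh38.p14) held 46 windows, each from 250 bases before to 50 bases after a transcription start, for 31 of the 39 genes; ABCC1, GSR, GSS, MGST2, PRDX1, PRDX6, SOD1 and TXN2 were not analysed in this way. The core was searched as TGACNNNGC on both strands. It was found in 8 of the 31 genes (25.8%), against 16.1% of 27305 genes with a window. With a further A, as TGACNNNGCA, it was found in 7 of the 31 genes (22.6%), against 3.94% of all; the longer form was chosen after the first search, and the gene list itself was drawn up around NRF2. Capitals mark the core, and each stretch is written along the strand on which the core reads TGAC.
GCLM, chr1:93909436-93909484, plus strand, core 34 bases before the start: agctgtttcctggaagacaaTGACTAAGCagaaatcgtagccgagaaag
KEAP1, chr19:10502774-10502822, plus strand, core 31 bases before the start: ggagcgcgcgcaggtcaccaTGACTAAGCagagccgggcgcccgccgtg
TXNRD1, chr12:104286910-104286958, minus strand, core 102 bases before 1 of its starts: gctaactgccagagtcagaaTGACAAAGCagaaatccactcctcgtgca
GSTP1, chr11:67583726-67583774, plus strand, core 66 bases before the start: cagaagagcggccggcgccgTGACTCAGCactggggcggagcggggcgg
GPX2, chr14:64942839-64942887, plus strand, core 122 bases before the start: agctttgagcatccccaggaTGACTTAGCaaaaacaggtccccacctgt
GSTO1, chr10:104254646-104254694, plus strand, core 226 bases before the start: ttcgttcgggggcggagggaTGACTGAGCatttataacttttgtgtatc
GCLM and KEAP1 share the same 9 letters of the core, and the core in GSTP1 also contains the AP-1 motif TGANTCA, the only such overlap among the 12 matches. GSTA4 and MGST1 hold a core as well. A match describes the letters of the window and not a bound site, and a window without one says nothing about NRF2 at that gene.

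Across the whole group the arrays differed little. A ratio of 2 or more was reached by 0 of the 37 measured genes in either direction on the brightest probe set, where 1.21% of all 12663 measured genes were higher in the MTf clone and 1.9% lower by that size. At 1.5-fold, 1 gene was higher (GLRX) and 1 lower (NQO1), against 5.38% and 8.43% of all measured genes. The median log2 ratio of the 37 genes was -0.085, and that of all measured genes -0.022. Of the 33 genes over the floor on both arrays, 20 (60.6%) had a log2 ratio between -0.25 and 0.25, where 58.3% of all such genes did. Counts this near to the shares of all genes are no result about the group.

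Genes with brighter probe sets scattered less on these arrays, and most members had bright ones. Among genes with a mean signal over 10000, the log2 ratios of 15 members had an SD of 0.22 and those of all 1115 genes 0.21. Between 2000 and 10000 the SD was 0.35 for 14 members and 0.29 for all 4147 genes. In these 2 classes the spread of the members was close to that of all genes. Under a mean signal of 500 it was 0.25 for 6 members, 4 of them bounds set by the floor, and 0.51 for all 3438 genes; 2 members lay between 500 and 2000. The only repeat reading is that of different probe sets for 1 gene on the same arrays, whose log2 ratios had a pooled SD of 0.35 over 5387 genes; it was 0.40 where the dimmest probe set was under 500 and 0.21 where it was over 2000. Of the 33 members over the floor on both arrays, 7 (21.2%) lay further than this from the median of all genes, and 28.6% of all genes over the floor on both arrays did. Those 7 were GLRX, GSTA4, SOD2, GSR and TXN on the higher side, and NQO1 and GPX1 on the lower side.

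**Figure D1:**
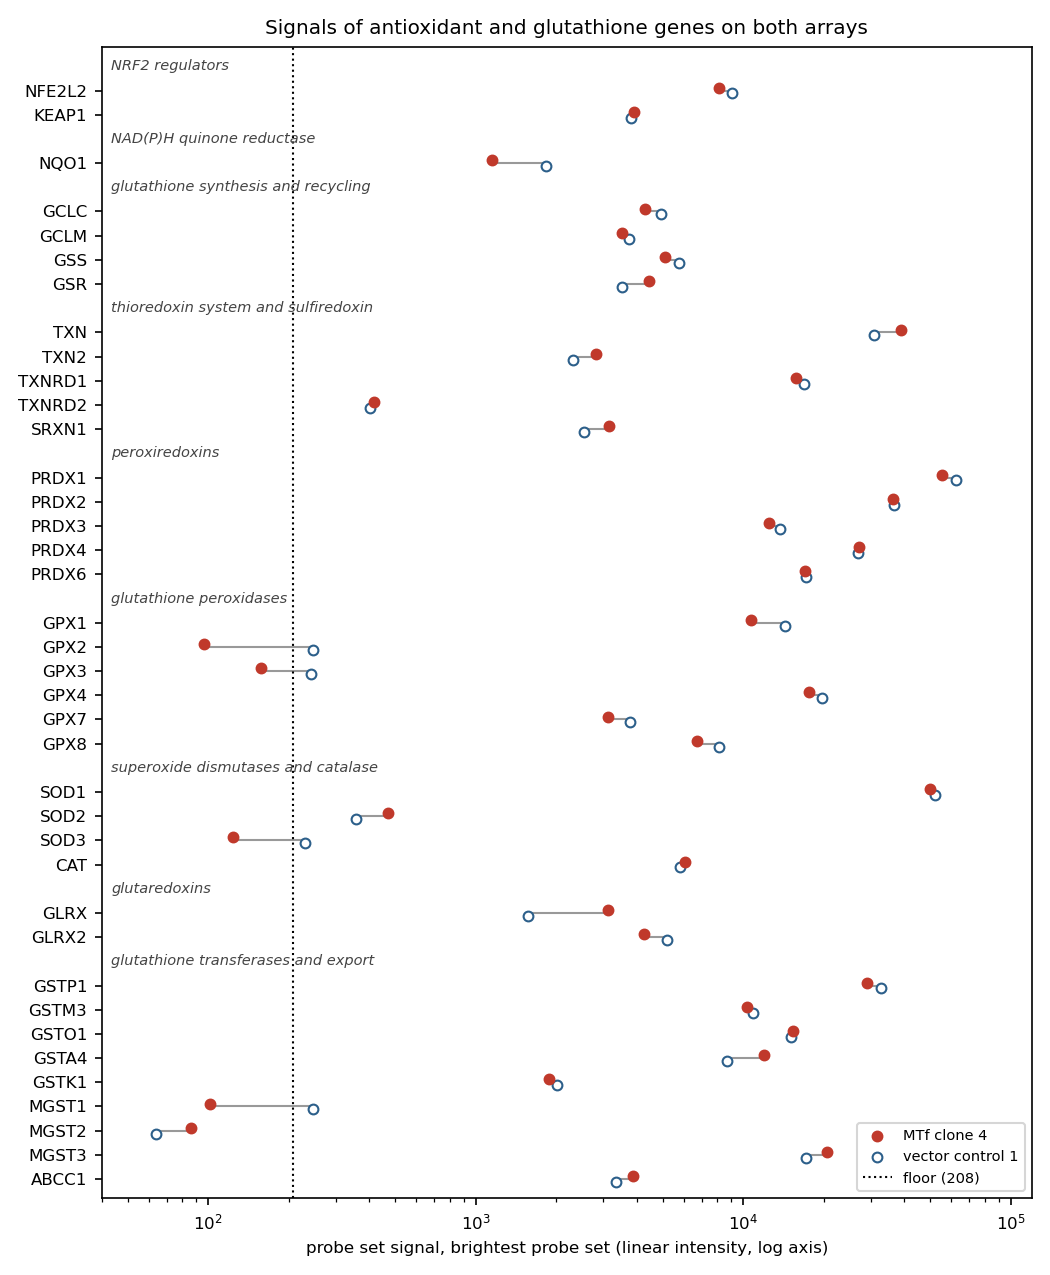
Signal of the brightest probe set of each gene (linear intensity on a log axis) in the MTf clone (filled red) and the vector control (open blue), 1 array each, grouped by role; the dotted line is the floor of 208. The pairs of points lie close together for most genes, and GLRX (3131.6 in the MTf clone, 1574.1 in the vector control) has the widest gap among genes over the floor on both arrays.

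On their brightest probe sets the regulators of the pathway differed by less than the spread between probe sets. NFE2L2, which encodes NRF2, read 8081 in the MTf clone and 9074.6 in the vector control, a log2 ratio of -0.17. Its dim second probe set read 238.6 in the MTf clone and 368.7 in the vector control (log2 ratio -0.63), and the third was below the floor on both arrays. KEAP1, the sensor that holds NRF2 for degradation, read 3895.9 in the MTf clone and 3807.2 in the vector control on its 1 probe set, a log2 ratio of 0.03. NRF2 is controlled mostly by the stability of its protein, which arrays do not measure.

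NQO1, a quinone reductase and a widely used readout of NRF2, was the lowest of the members on the brightest probe set. That probe set, 210519_s_at, read 1151.5 in the MTf clone and 1824.5 in the vector control, 1.58-fold lower. The next, 201468_s_at, read 868.3 in the MTf clone and 924.1 in the vector control, which is 1.06-fold lower. The dimmest, 201467_s_at, read 207.1 in the MTf clone, just under the floor, and 443.4 in the vector control, at least 2.13-fold lower. All 3 probe sets were thus lower in the MTf clone, with log2 ratios of -0.66, -0.09 and a bound of -1.09. All 3 have the suffix of probe sets that can match several transcripts.

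Glutathione is made by glutamate-cysteine ligase, with the catalytic subunit GCLC and the modifier subunit GCLM, and then by glutathione synthetase, GSS. GCLC read 4299.9 in the MTf clone and 4923 in the vector control, and a second probe set read 2362.5 in the MTf clone and 2717.1 in the vector control. Both probe sets gave a log2 ratio of -0.20; the third was below the floor on both arrays. GCLM read 3532.4 in the MTf clone and 3747.1 in the vector control, a log2 ratio of -0.09. Its other 2 probe sets were lower as well, at 1243.5 in the MTf clone and 1423.9 in the vector control (log2 ratio -0.20), and at 801.2 in the MTf clone and 1406.2 in the vector control (log2 ratio -0.81). The 3 probe sets of GCLM agree in direction but not in size. GSS read 5105.5 in the MTf clone and 5757.7 in the vector control, and both of its probe sets had a log2 ratio of -0.17. The 3 synthesis genes thus read slightly lower on all 7 of their probe sets over the floor on both arrays, each by less than the probe set spread except the dimmest of GCLM.

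GSR, the reductase that returns oxidised glutathione to its reduced form, read 4456.4 in the MTf clone and 3516.4 in the vector control, a log2 ratio of 0.34. A second probe set pointed the other way, at 2965 in the MTf clone and 3369.6 in the vector control (log2 ratio -0.18). These arrays therefore give no direction for GSR.

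Of the 5 thioredoxin genes 4 read higher on the brightest probe set, where 47.1% of all measured genes did, with a median log2 ratio of 0.29. TXN, the cytosolic thioredoxin, read 39020 in the MTf clone and 30812.1 in the vector control, 1.27-fold higher. Its dimmer second probe set, 216609_at, read 1772 in the MTf clone and 732.7 in the vector control, 2.42-fold higher. Both readings of TXN were thus higher, by 0.34 and 1.27 on the log2 scale. TXN lies on chromosome 9, where the median log2 ratio of 445 genes over the floor on both arrays was 0.48, whereas the medians of the other chromosomes that carry members lay between -0.06 and 0.04. The brighter probe set of TXN lies below that median and the dimmer one above it; the part of the chromosome in the reading of TXN was not tested.

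TXN2, the mitochondrial thioredoxin, read 2802.9 in the MTf clone and 2299.9 in the vector control (log2 ratio 0.29), but 2012 in the MTf clone and 2789.8 in the vector control on its other probe set (log2 ratio -0.47). In the vector control alone that other probe set was the brighter one, so the direction for TXN2 depends on the choice. SRXN1, the sulfiredoxin that repairs overoxidised peroxiredoxins and is itself an NRF2 target, read 3148.3 in the MTf clone and 2538.7 in the vector control, 1.24-fold higher on 1 probe set. The reductases that feed the thioredoxins differed least in this group. TXNRD1, the cytosolic selenoprotein reductase, read 15692.2 in the MTf clone and 16856 in the vector control, a log2 ratio of -0.10, and its second probe set was below the floor on both arrays. TXNRD2, the mitochondrial form, read 416.8 in the MTf clone and 403.9 in the vector control, a log2 ratio of 0.05. With every gene taken as the median over its probe sets, the 5 genes had a median of 0.09 relative to all genes, where the brightest probe sets gave 0.31.

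The peroxiredoxins, abundant thiol peroxidases that pass their oxidation on to thioredoxin, were the most even role group: the log2 ratios of the 5 measured genes ran from -0.17 to 0.01, with an SD of 0.08. PRDX1 read 55462 in the MTf clone and 62191.8 in the vector control, and PRDX4, the form of the endoplasmic reticulum, 27082.3 in the MTf clone and 26833.6 in the vector control. PRDX6, which uses glutathione, read 16965.3 in the MTf clone and 17228.6 in the vector control, and its second probe set had a log2 ratio of 0.06. The dimmer probe sets were less even than the brightest. PRDX3, the mitochondrial form, read 12434.4 in the MTf clone and 13760.6 in the vector control (log2 ratio -0.15), and 384.6 in the MTf clone and 610.7 in the vector control on its second probe set (log2 ratio -0.67). PRDX2 had 4 probe sets, with 36226.2 in the MTf clone and 36714.8 in the vector control on the brightest (log2 ratio -0.02). Its next read 11922.3 in the MTf clone and 13707.6 in the vector control (log2 ratio -0.20). The dimmer ones pointed in opposite directions, at 1081.2 in the MTf clone and 787.7 in the vector control (log2 ratio 0.46) and at 389.3 in the MTf clone and 574.1 in the vector control (log2 ratio -0.56).

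The 4 glutathione peroxidases over the floor on both arrays read lower in the MTf clone on the brightest probe set. Of all such genes 48.8% were lower. The other 2, GPX2 and GPX3, were over the floor in the vector control only, so they could only read lower. GPX1, the cytosolic selenoenzyme that reduces hydrogen peroxide, read 10651.7 in the MTf clone and 14278.3 in the vector control, 1.34-fold lower on its 1 probe set. GPX4, the selenoenzyme that reduces lipid hydroperoxides in membranes and holds back ferroptosis, read 17540.9 in the MTf clone and 19671.6 in the vector control, 1.12-fold lower. Relative to the median of all genes GPX1 lay at -0.40, beyond the pooled probe set SD of 0.35, and GPX4 at -0.14, within the 0.21 found for genes with all probe sets over 2000. GPX7 and GPX8, which lie in the endoplasmic reticulum and have no selenocysteine, were each lower by a little more than that 0.21, at -0.25 and -0.26 relative to all genes. GPX7 read 3116.7 in the MTf clone and 3768.3 in the vector control, 1.21-fold lower. GPX8 read 6690 in the MTf clone and 8135.3 in the vector control, 1.22-fold lower, whereas its second probe set read 2873.8 in the MTf clone and 2613.2 in the vector control, a log2 ratio of 0.14. The remaining 2 were dim. GPX2, the form known from gut epithelium, read 96.4 in the MTf clone and 245.5 in the vector control, and the secreted GPX3 157.6 in the MTf clone and 241.4 in the vector control. These are lower by at least 1.18-fold and 1.16-fold against the floor, and their second probe sets were below the floor on both arrays.

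The enzymes for superoxide and free hydrogen peroxide showed no shared direction. SOD1, the copper and zinc enzyme of the cytosol, read 49908.3 in the MTf clone and 52261.8 in the vector control, a log2 ratio of -0.07. CAT, the peroxisomal catalase, read 6036.4 in the MTf clone and 5795.2 in the vector control (log2 ratio 0.06), and 1843.8 in the MTf clone and 2139.6 in the vector control on its second probe set (log2 ratio -0.21). The third CAT probe set read 219.1 in the MTf clone, just above the floor, and 39.6 in the vector control. SOD2, the manganese enzyme of mitochondria, read 469.1 in the MTf clone and 357.7 in the vector control, a log2 ratio of 0.39. That value rests on 1 dim probe set, since 4 others carry a second gene symbol and were not used here. SOD3, the secreted form, read 123.7 in the MTf clone and 229.8 in the vector control, lower by at least 1.1-fold.

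**Figure D2:**
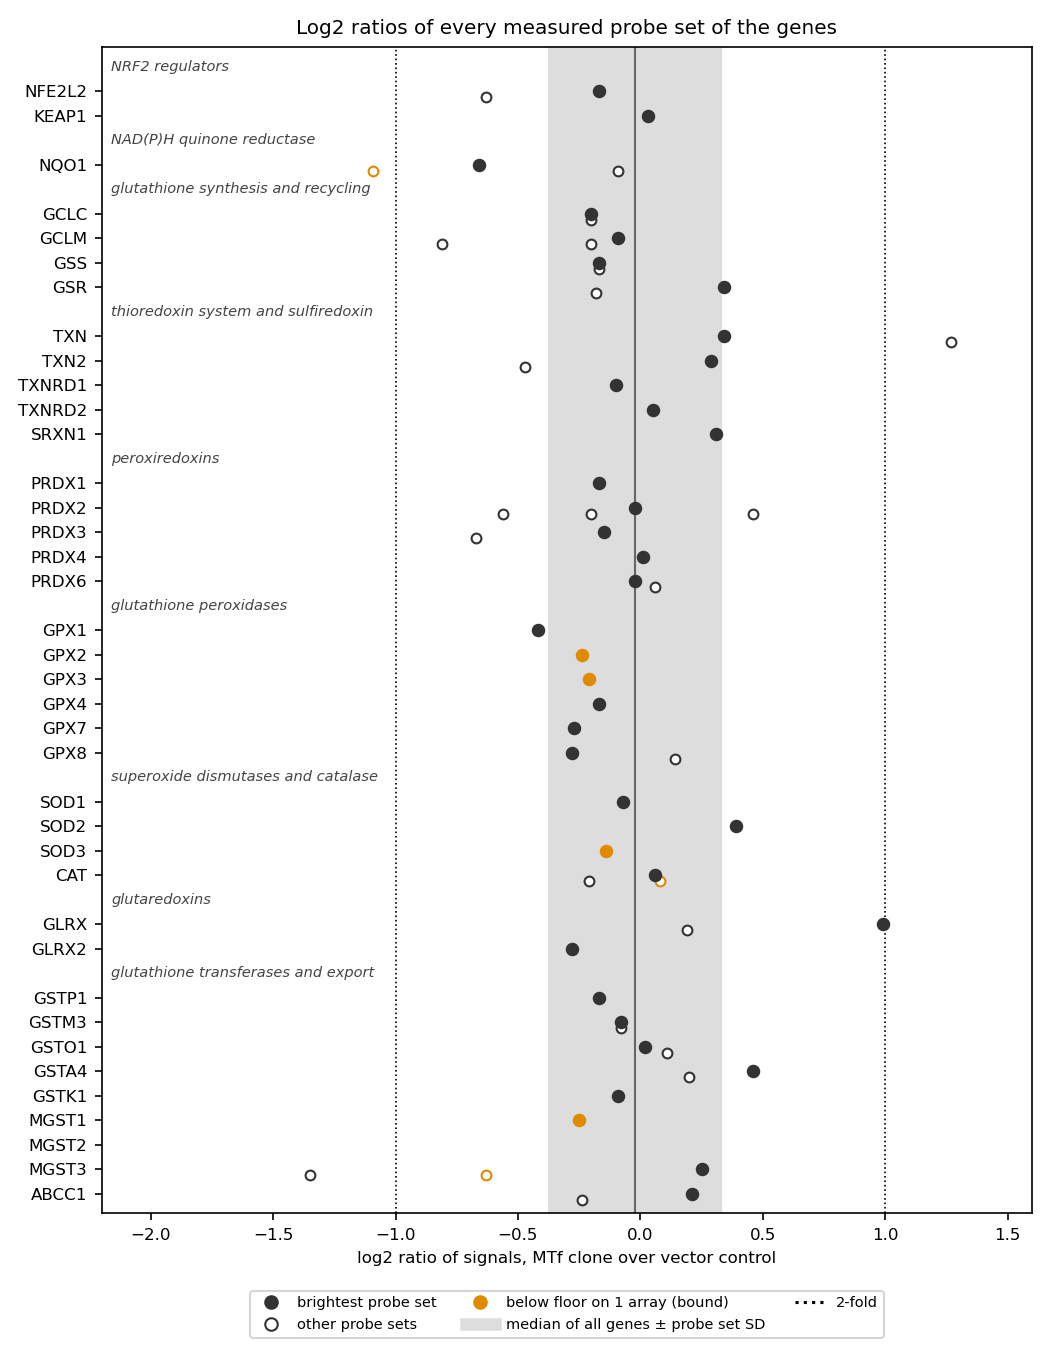
Log2 ratio (MTf clone over vector control) of all 62 measured probe sets, by gene and role; filled points are the brightest probe set of a gene, open points its others, orange points bounds from a value below the floor on 1 array, the grey band the median of all genes plus and minus the pooled probe set SD of 0.35, and dotted lines 2-fold. Most filled points lie inside the band, and the widest gaps between probe sets of 1 gene are those of MGST3 (0.25 and -1.35), PRDX2 (0.46 and -0.56) and NQO1.

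GLRX stood furthest from the median among the members on the brightest probe set. It encodes the cytosolic glutaredoxin, which uses glutathione to release glutathione bound to protein thiols. Its probe set 206662_at read 3131.6 in the MTf clone and 1574.1 in the vector control, 1.99-fold higher. The other, 209276_s_at, read 2105.6 in the MTf clone and 1839.7 in the vector control, 1.14-fold higher. Both were higher, and they differ by 0.80 on the log2 scale, so the size of the difference depends on the probe set. In the vector control alone 209276_s_at was the brighter one, so the choice of 206662_at rests on its reading in the MTf clone. GLRX2, the mitochondrial glutaredoxin, read 4267.4 in the MTf clone and 5196.9 in the vector control, a log2 ratio of -0.28 on 1 probe set.

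Among the glutathione transferases, which join glutathione to electrophiles, GSTA4 was the furthest apart on the brightest probe set. This form, which acts on the lipid peroxidation product 4-hydroxynonenal, read 11934 in the MTf clone and 8681.4 in the vector control, 1.37-fold higher, and its second probe set had a log2 ratio of 0.20. Both readings were higher. GSTP1, the pi class enzyme, read 28888.3 in the MTf clone and 32595.5 in the vector control (log2 ratio -0.17). GSTM3, a mu class enzyme, read 10339.3 in the MTf clone and 10903.2 in the vector control, with -0.08 on both of its probe sets. GSTO1, of the omega class, read 15356.7 in the MTf clone and 15099.9 in the vector control, with 0.02 and 0.11 on its 2 probe sets. These 3 genes, and GSTK1 of mitochondria and peroxisomes, at 1883.9 in the MTf clone and 2009.3 in the vector control (log2 ratio -0.09), lay within the probe set spread.

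The membrane-bound transferases were read unevenly. MGST3 read 20524.1 in the MTf clone and 17201.7 in the vector control, 1.19-fold higher. Its dim probe set 233307_x_at read 228.8 in the MTf clone and 584.8 in the vector control, 2.56-fold lower, and 244122_at 168.2 in the MTf clone and 322.1 in the vector control, at least 1.55-fold lower. The direction of MGST3 therefore depends on the probe set. MGST1 read 101.7 in the MTf clone and 247.2 in the vector control on the brightest of 5 probe sets, at least 1.19-fold lower, and the other 4 were below the floor on both arrays. MGST2 was not measured, at 86.4 in the MTf clone and 63.9 in the vector control. ABCC1, a membrane pump that exports glutathione conjugates, read 3863.3 in the MTf clone and 3341.7 in the vector control (log2 ratio 0.21), and 982.4 in the MTf clone and 1157.8 in the vector control on its second probe set (log2 ratio -0.24).

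Where a gene had several probe sets over the floor on both arrays, they often disagreed. Of 19 such members, 11 had all these probe sets on the same side of 0, with 7 lower and 4 higher, and 8 had them on both sides. The same shares over all genes were not determined, so these counts are no result about the members. The 7 were NFE2L2, NQO1, GCLC, GCLM, GSS, PRDX3 and GSTM3, and the 4 were TXN, GLRX, GSTO1 and GSTA4. The pooled SD within these 19 genes was 0.43, against 0.35 over all 5387 genes with several such probe sets. Over all 55 member probe sets over the floor on both arrays, 34 were lower and 21 higher; of all such probe sets annotated to 1 gene, 51.2% were lower.

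Log2 ratios of members with and without the core of the antioxidant response element in their window are given as values only. A window without a core says nothing about NRF2 at that gene, so setting the groups side by side cannot decide anything. The 6 members with a core that were over the floor on both arrays had log2 ratios from -0.17 to 0.46, with a median of -0.03. The 20 members over the floor on both arrays with a window but no core had log2 ratios from -0.66 to 0.99, with a median of -0.08. NQO1 and GLRX, the members past 1.5-fold, were both among these 20.

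**Figure D3:**
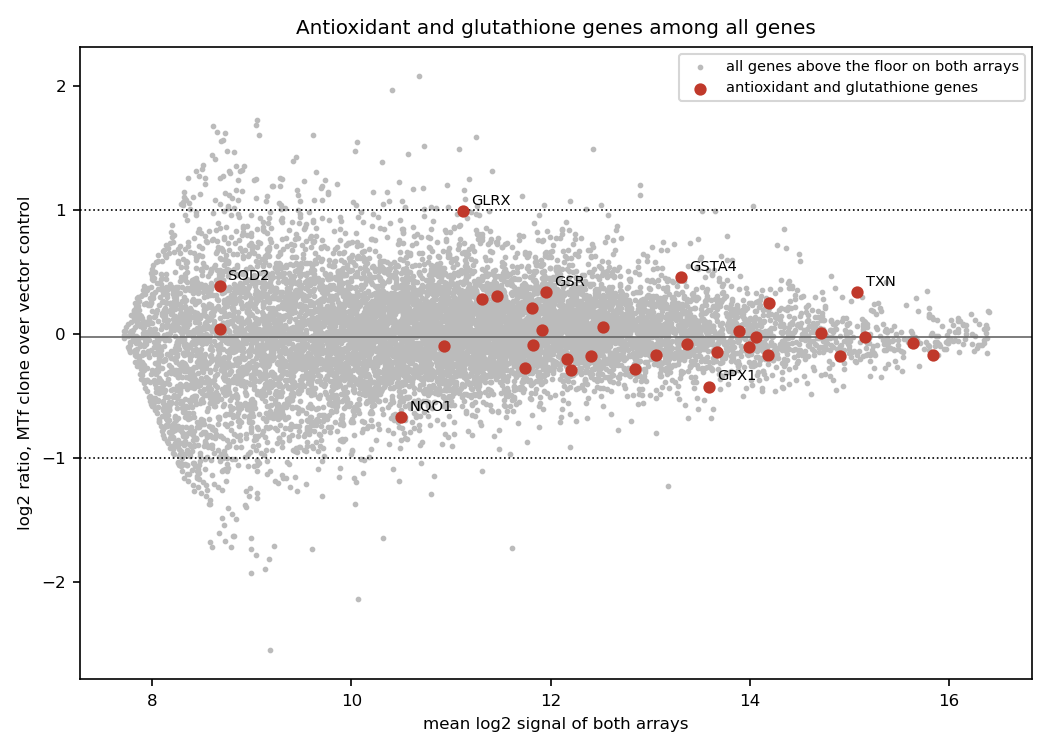
Log2 ratio (MTf clone over vector control) against mean log2 signal for the 10795 genes over the floor on both arrays (grey) and the 33 antioxidant and glutathione genes among them (red), with named points for the 7 further from the median of all genes than the probe set SD; dotted lines mark 2-fold. The scatter of all genes narrows with signal, and the red points lie inside it.

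The related genes of the pathway were read from lists drawn up by function. By 1.5-fold, 5.38% of all measured genes were higher and 8.43% lower, so a count of 0 in a short list says little. Of the partners and repressors of NRF2, 0 of 11 measured genes passed 1.5-fold in either direction, and their median log2 ratio was 0.02. Of the small MAF proteins that pair with NRF2, MAFF read 722.3 in the MTf clone and 592.6 in the vector control on its brightest probe set, with a log2 ratio of -0.10 on the other, and MAFG 756 in the MTf clone and 643.1 in the vector control. MAFF, at a log2 ratio of 0.29 on the brightest probe set, was the highest of the list, and NFE2L3, a relative of NRF2, the lowest, at 190.2 in the MTf clone and 296.1 in the vector control, with a bound of -0.51. Of 12 other measured NRF2 target genes, 0 passed 1.5-fold, with a median of -0.03. The highest was ABCC4, an export pump, at 3603 in the MTf clone and 2434 in the vector control (log2 ratio 0.57, with other probe sets down to -0.44), and the lowest EPHX1, an epoxide hydrolase, at 939.9 in the MTf clone and 1215.3 in the vector control. HMOX1, the haem oxygenase induced by NRF2, was below the floor on both arrays, at 90.9 in the MTf clone and 14.2 in the vector control.

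Genes of cystine uptake and glutathione turnover read lower in 10 of 14 cases, where 52.8% of all measured genes did. The median log2 ratio of the 14 was -0.28. At least 1.5-fold lower were 3 of them, and 0 were higher by that size. GGT1 and GGT7, among these 3, were over the floor in the vector control only and could only read lower. The 12 genes over the floor on both arrays had a median of -0.23. Of all measured genes with a mean signal under 500, 27.3% passed 1.5-fold in either direction and the median log2 ratio was -0.19; CHAC1, GGT1 and GGT7 here, and SEPSECS and PTGDS in the lists that follow, are of that class. Between 500 and 2000 the share was 14.4%. CHAC1, which degrades glutathione and is induced in amino acid stress, read 345.8 in the MTf clone and 566.7 in the vector control, 1.64-fold lower. GGT7 and GGT1, of the family that breaks down extracellular glutathione, were under the floor in the MTf clone, at 193.6 in the MTf clone and 336.7 in the vector control and at 193.3 in the MTf clone and 315.8 in the vector control. SLC7A11, the cystine transporter that supplies cysteine for glutathione, read 4889.2 in the MTf clone and 6574.9 in the vector control, with log2 ratios from -0.59 to -0.32 on all 3 probe sets. CTH, which makes cysteine from cystathionine, read 2634.2 in the MTf clone and 3307.1 in the vector control, with -0.65 and -0.33 on its 2 probe sets. Other members read higher, among them CHAC2 (log2 ratio 0.13) and GGCT (0.20), which also act in the breakdown of glutathione.

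Over all measured genes, 8.43% were at least 1.5-fold lower and 5.38% higher, the shares to set beside the counts in this paragraph. Of 13 measured genes of NADPH supply, 1 was at least 1.5-fold lower and 0 higher, with a median log2 ratio of -0.13. It was ALDH1L2, the mitochondrial formyltetrahydrofolate dehydrogenase, at 505.5 in the MTf clone and 974.3 in the vector control, 1.93-fold lower. Of 16 measured genes in a list of thioredoxin-fold proteins, methionine sulfoxide reductases and related redox genes, SESN2 was the 1 past 1.5-fold. This stress-induced sestrin read 741.5 in the MTf clone and 1424.7 in the vector control, and the median of the list was -0.10. Genes of selenoprotein synthesis and other selenoproteins had a median of -0.06 over 15 genes, with 2 at least 1.5-fold lower. SEPSECS, which makes selenocysteine on its transfer RNA, read 225.8 in the MTf clone and 434.6 in the vector control, 1.92-fold lower on the only 1 of its 5 probe sets with both signals over the floor. SELENON, of the endoplasmic reticulum, read 642.2 in the MTf clone and 1043.6 in the vector control, 1.63-fold lower. SECISBP2, which binds the selenocysteine insertion element, was the highest of the list, at 7010.5 in the MTf clone and 4960.4 in the vector control (log2 ratio 0.50), and it lies on chromosome 9 with TXN.

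Among 9 other measured glutathione transferases and prostaglandin synthases the median was -0.11. By its bound 1 gene was past 2-fold lower, where 1.9% of all measured genes were lower by that size. PTGDS, a prostaglandin D synthase, read 198.3 in the MTf clone, under the floor, and 459.8 in the vector control, at least 2.21-fold lower. PTGDS lies on chromosome 9 as well, as TXN and SECISBP2 do, which read higher. Of 7 measured genes of ferroptosis and NADPH oxidases, 2 were at least 1.5-fold lower and 0 higher, with a median of -0.27, where 8.43% of all measured genes were lower and 5.38% higher by that size. Relative to all genes this median was -0.25, and it was -0.09 with each gene as the median over its probe sets and -0.13 without a floor. AIFM2, which suppresses ferroptosis in parallel to GPX4, read 396.2 in the MTf clone and 780.1 in the vector control, 1.97-fold lower, with -0.43 on its second probe set. ACSL4, a ligase that supplies the polyunsaturated lipids oxidised in ferroptosis, read 582 in the MTf clone and 890 in the vector control, 1.53-fold lower, with a log2 ratio of 0.34 on another probe set. NOX1, NOX4, DUOX1 and DUOX2, oxidases that make superoxide or hydrogen peroxide, were below the floor on both arrays.

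**Figure D4:**
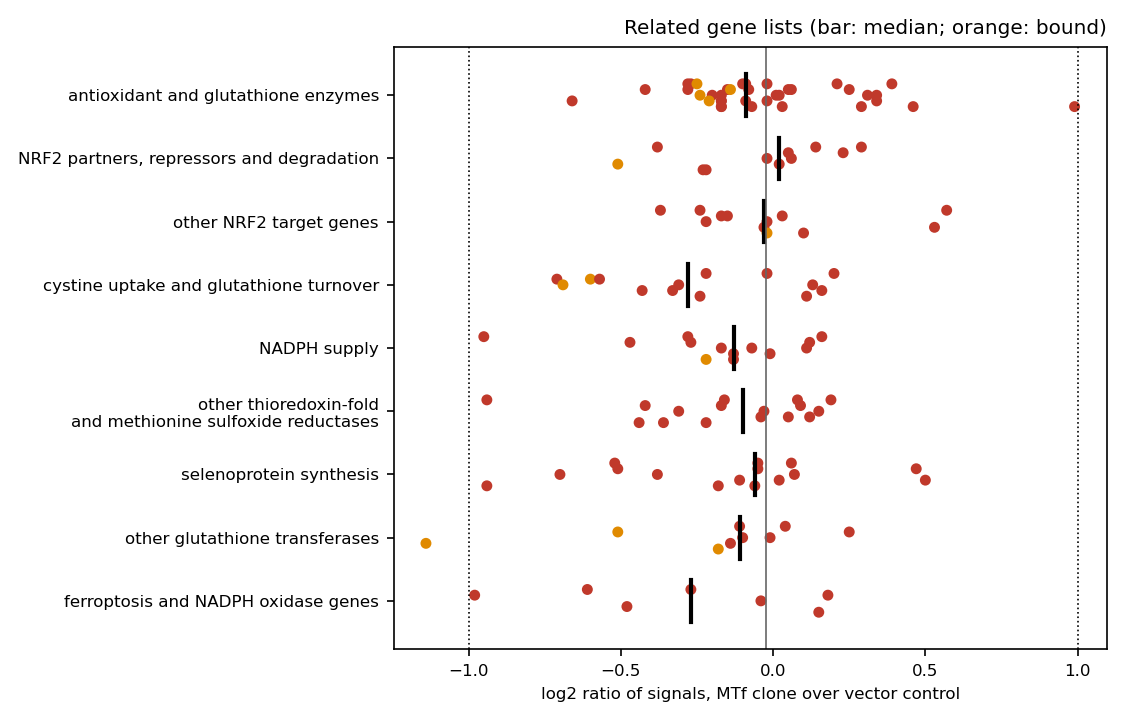
Log2 ratios (MTf clone over vector control) of measured genes in the antioxidant and glutathione group and in 8 related lists; bars are list medians, red points genes over the floor on both arrays, orange points bounds, the grey line the median of all genes and dotted lines 2-fold. The medians lie between -0.28 (cystine uptake and glutathione turnover) and 0.02 (NRF2 partners), and the points past 1.5-fold in the related lists are all on the lower side. By that size 8.43% of all measured genes were lower and 5.38% higher. The bounds, all from genes over the floor in the vector control only, could fall only on the lower side.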

How the data were processed

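The intensity values are probe set signals that the authors deposited on a linear scale, 1 per probe set and array; GCOS 1.3 was used, per the submitters' processing notes, and neither the summary algorithm nor the scaling target is stated there. Without the lowest and highest 2% of 54675 probe sets, both arrays had a mean signal of 1000.1, so a change shared by most transcripts cannot be seen. Gene names came from the 2016 platform annotation, updated through RefSeq (GRCh38.p14): 41097 probe sets had 1 symbol, 1801 several and 11777 none here, and 41043 matched by gene ID. Chromosomes are from that table.

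A gene under the floor of 208 (191 background probe sets) on both arrays was not measured; under it on 1 array, it was compared with the floor. With 1 array per group there is no test, and the number of arrays limits the precision; counts use a fixed 2-fold size, with 1.5-fold beside it. All members are given. Of the related lists, genes past 1.5-fold are given, otherwise the furthest each way; MAFF, MAFG, HMOX1, SLC7A11, CTH, SECISBP2 and the oxidases were added after their values were seen. The members and lists were chosen with earlier results of these data known. Spiked controls differed: all 18 hybridisation spikes read lower in the MTf clone (median ratio 0.706) and 24 of 27 poly-A spike probe sets higher (1.52 over all 27; the other 3 were below the floor). The 3′ to 5′ signal ratio of ACTB was 1.44 in the MTf clone and 1.21 in the vector control, and that of GAPDH 0.951 in the MTf clone and 0.92 in the vector control. Python 3.11.15, numpy 2.4.6, pandas 2.3.3 and statsmodels 0.14.6 were used, and the gene summary was tested on simulated data.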

Additional observations from a re-analysis of the deposited data

How the results depend on the processing

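Each count was 0 as reported. The number of genes at least 2-fold higher was 1 with arrays centred on the hybridisation spikes (GLRX), 1 on probe sets without shared sequences (TXN), 1 when any measured probe set counted (TXN; added after the data were seen, as was its counterpart below) and 1 at 1.5-fold (GLRX); it stayed at 0 under the other floors, the pseudocount of 208, the median of probe sets, loess, quantile normalization and poly-A centring. The number at least 2-fold lower was 2 with poly-A centring (NQO1 and GPX1), 2 when any measured probe set counted (NQO1 and MGST3) and 1 at 1.5-fold (NQO1), and 0 in the other settings. Centring on the spikes moved the median of all genes to 0.48 or -0.63 on the log2 scale. The members past 1.5-fold then numbered 9 higher and 0 lower, or 0 higher and 24 lower, and all genes past 2-fold 959 higher and 32 lower, or 13 higher and 1956 lower, where the deposited scale gave 153 and 240. Directions in the text hold on the deposited scale only. Relative to all genes, the median of the members lay between -0.08 and -0.03 in every setting run, including 2 settings added after the data were seen (genes above the floor on both arrays, and without chromosome 9). Centring on either kind of spike shifts all genes alike and cannot change a value relative to all genes. Those settings are counted here and in the 322 and 126 values below, where their outcome was fixed in advance. Of 322 values for single members relative to all genes under other settings, 316 lay within the pooled probe set SD of the reported value; the exceptions were GLRX (0.64), TXN (0.85 and 1.28), TXN2 (-0.05) and MGST3 (-0.58 and -0.62), all from another choice of probe set. Of 126 list medians relative to all genes, 4 moved by more than the probe set SD over the square root of the list's size, without turning: the thioredoxin genes (0.09, as reported 0.31), the ferroptosis and oxidase list, as given above, and the other NRF2 targets (-0.14, as reported -0.01). No paired analysis was possible because each group has 1 array, and for the same reason no sample could be left out. Dim genes are limited by the background: under a mean signal of 500 the SD of all log2 ratios was 0.51.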
